A study of Mus musculus with 5 samples.

Results

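The genes that encode semaphorins, plexins and neuropilins were examined for NEUROD2 binding in the cortex of mouse embryos at embryonic stage E14.5. The group holds 31 genes, namely 20 semaphorins, 9 plexins and 2 neuropilins, of 21938 protein-coding genes in the annotation. For each gene the locus was the span of its longest transcript plus 50 kb on either side, and a peak belonged to the locus if its midpoint lay there. Overlapping peaks were merged into 322 regions, of 53833 regions in the whole genome. All samples were dissected cortices of BALB/c embryos, pooled over several litters for each immunoprecipitation. NEUROD2 was precipitated with 3 antibodies, a mouse antibody (ab1) and a pair of rabbit antibodies (ab2 and ab3), each sequenced as 1 library, and 2 GFP antibodies served as controls against which the authors called the peaks. The rabbit GFP library was the control of both ab2 and ab3. There is thus a single condition with no contrast of genotype or treatment, and the spread given here is the one over antibodies. Cortical tissue is a mixture of cell types, so strong binding in few cells and weak binding in many cells cannot be told apart. Expression was not measured in these files, so the tissue label could not be checked against marker genes.

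Semaphorins are secreted or membrane-bound guidance cues that steer axons and migrating neurons. Plexins are their signalling receptors, and the neuropilins are the ligand-binding partners that most class 3 semaphorins need in order to reach class A plexins. In the developing cortex these cues shape the entry of axons into the corpus callosum and the internal capsule, dendrite orientation and radial migration. NEUROD2 is a basic helix-loop-helix transcription factor of cortical projection neurons, and such factors bind E-boxes, which are short sites of the form CANNTG.

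The binding sites themselves are shown first, since the values below refer to them. In 9 of the 10 loci with the most regions bound with all 3 antibodies (ties ordered by the highest ab3 score), the region with the highest ab3 score was taken, and the central 200 bp of its plus strand are printed from the GRCm38 (mm10) sequence, 5′ to 3′. Capitals mark matches on either strand to the extended E-box, which is the core CAGCTG, the core CATATG, or the core CAGATG (read as CATCTG on the opposite strand), each with a G or a T as the next base, so that a site matched on both strands is 8 bases long. Of all shared regions in the genome, defined as those with peaks of at least 2 antibodies, 59.7% held such a site in this window. The windows were chr15:32324181-32324380 in Sema5a, chr6:32374087-32374286 in Plxna4, chr2:124524390-124524589 in Sema6d, chr13:51778323-51778522 in Sema4d and chr16:35603803-35604002 in Sema5b. The others were chr1:62783842-62784041 in Nrp2, chr6:115957152-115957351 in Plxnd1, chr8:128471294-128471493 in Nrp1 and chr7:80143692-80143891 upstream of Sema4b.
Sema5a, intron 1: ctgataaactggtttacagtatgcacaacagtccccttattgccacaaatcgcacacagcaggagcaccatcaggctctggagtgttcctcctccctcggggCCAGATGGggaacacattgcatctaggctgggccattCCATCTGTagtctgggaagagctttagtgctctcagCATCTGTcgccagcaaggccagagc
Plxna4, intron 3: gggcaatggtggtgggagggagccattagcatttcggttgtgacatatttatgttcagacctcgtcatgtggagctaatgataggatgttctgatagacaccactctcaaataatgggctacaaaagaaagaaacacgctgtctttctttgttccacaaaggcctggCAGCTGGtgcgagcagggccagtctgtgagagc
Sema6d, intron 5: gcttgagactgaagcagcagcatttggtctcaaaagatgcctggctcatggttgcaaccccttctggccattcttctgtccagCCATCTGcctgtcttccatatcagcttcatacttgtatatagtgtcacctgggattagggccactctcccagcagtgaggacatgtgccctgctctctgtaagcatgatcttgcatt
Sema4d, intron 1: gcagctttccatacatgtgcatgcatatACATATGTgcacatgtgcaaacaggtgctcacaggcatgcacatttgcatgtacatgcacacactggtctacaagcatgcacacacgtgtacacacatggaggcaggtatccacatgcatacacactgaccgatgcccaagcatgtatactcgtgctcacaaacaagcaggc
Sema5b, intron 1: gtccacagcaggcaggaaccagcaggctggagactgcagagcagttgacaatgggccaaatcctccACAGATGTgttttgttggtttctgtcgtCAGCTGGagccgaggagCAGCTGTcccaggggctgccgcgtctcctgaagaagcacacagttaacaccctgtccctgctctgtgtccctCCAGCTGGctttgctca
Nrp2, intron 13: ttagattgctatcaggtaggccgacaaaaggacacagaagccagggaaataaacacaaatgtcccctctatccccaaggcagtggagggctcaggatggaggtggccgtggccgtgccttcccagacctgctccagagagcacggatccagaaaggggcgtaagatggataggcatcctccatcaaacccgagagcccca
Plxnd1, intron 33: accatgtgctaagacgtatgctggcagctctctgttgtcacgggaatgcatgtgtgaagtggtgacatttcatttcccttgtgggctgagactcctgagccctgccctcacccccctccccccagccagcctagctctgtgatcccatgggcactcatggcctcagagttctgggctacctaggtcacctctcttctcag
Nrp1, intron 9: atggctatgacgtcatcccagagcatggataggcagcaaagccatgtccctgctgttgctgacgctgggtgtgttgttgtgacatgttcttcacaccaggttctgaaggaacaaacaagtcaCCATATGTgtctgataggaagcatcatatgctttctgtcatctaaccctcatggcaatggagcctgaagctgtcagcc
Sema4b, upstream: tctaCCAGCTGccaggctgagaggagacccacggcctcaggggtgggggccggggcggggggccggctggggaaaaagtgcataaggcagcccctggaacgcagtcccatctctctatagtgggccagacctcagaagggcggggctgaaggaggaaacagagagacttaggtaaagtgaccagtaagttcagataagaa
The Sema5b window held 4 separate extended E-boxes, and the Sema5a window held 3. The windows of Plxna4, Sema6d, Sema4d, Nrp1 and Sema4b held 1 each. Those of Nrp2 and Plxnd1 held none, although both regions were bound with all 3 antibodies.

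The strongest ab1 signals within 1 kb of a transcription start site (TSS) were those of Plxna4, Sema7a and Sema3g, and the promoters of Sema7a and Sema3g are shown. The sequences are those of RefSeq (GRCm38.p6), from 250 bases before to 50 bases after the start, on the strand of the gene, and 26 of the 31 genes matched an entry. Sema7a lies at chr9:57939862-57940161 and Sema3g at chr14:31217623-31217922, both on the plus strand.
Sema7a, promoter: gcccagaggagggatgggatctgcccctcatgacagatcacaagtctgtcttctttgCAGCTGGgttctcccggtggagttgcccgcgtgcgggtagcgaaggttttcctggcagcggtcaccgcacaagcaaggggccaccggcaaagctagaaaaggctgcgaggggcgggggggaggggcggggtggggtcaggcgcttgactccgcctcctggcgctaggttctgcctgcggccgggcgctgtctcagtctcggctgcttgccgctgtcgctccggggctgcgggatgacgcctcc
Sema3g, promoter: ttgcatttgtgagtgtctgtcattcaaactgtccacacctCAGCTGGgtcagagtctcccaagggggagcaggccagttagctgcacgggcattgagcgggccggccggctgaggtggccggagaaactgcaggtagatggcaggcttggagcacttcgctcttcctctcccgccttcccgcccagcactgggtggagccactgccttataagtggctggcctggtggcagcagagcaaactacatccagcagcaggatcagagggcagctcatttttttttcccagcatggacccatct
Each held 1 extended E-box, and 26.3% of the 32851 promoters in the table held at least 1. In both genes the match lay outside the central 200 bp of the bound region, which held no site in Sema7a and 2 others in Sema3g.

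Genome-wide, ab1 gave 51837 peaks, ab2 35309 and ab3 7470, and 32261 regions were shared. MACS, the peak caller, gave each peak a score of 10 times the −log10 of its p-value. It was not scaled between libraries, and the peak files hold no read counts. The library sizes that the study gives were not used here. Within the 31 loci, ab1 gave 319 peaks, ab2 203 and ab3 44. These were 0.615%, 0.575% and 0.589% of the 3 lists, a mean of 0.593% ± 0.0205 (SD, n = 3 antibodies), so the antibodies placed nearly the same share of their peaks in these loci. The loci covered 0.252% of the chromosomes and held 0.604% of the shared regions, a ratio of 2.40, against 1.25 for the loci of all protein-coding genes defined in the same way.

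NEUROD2 regions lay in nearly all of these loci. Of the 322 regions, 44 held peaks of all 3 antibodies, 151 of 2 antibodies and 127 of 1 antibody, so that 195 were shared. With a minimum peak score of 100, 119 were shared and 21 held all 3 antibodies. All 195 held ab1 and ab2, and each of the 44 ab3 peaks lay in a region that also held both others. At least 1 shared region was found in 29 of the 31 genes, or 93.5%, against 67.6% of all protein-coding genes. A region with all 3 antibodies was found in 18 genes, or 58.1%, against 26.7% of all protein-coding genes. Leaving out ab1 or ab2 leaves the 44 regions of 18 genes as shared, because ab3 then limits the count. Leaving out ab3 keeps the 195 shared regions in 29 genes. Among shared regions, the share with all 3 antibodies was 22.6% (95% Wilson interval 17.3 to 28.9, counting error only), close to 22.2% over the genome.

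**Figure D1:**
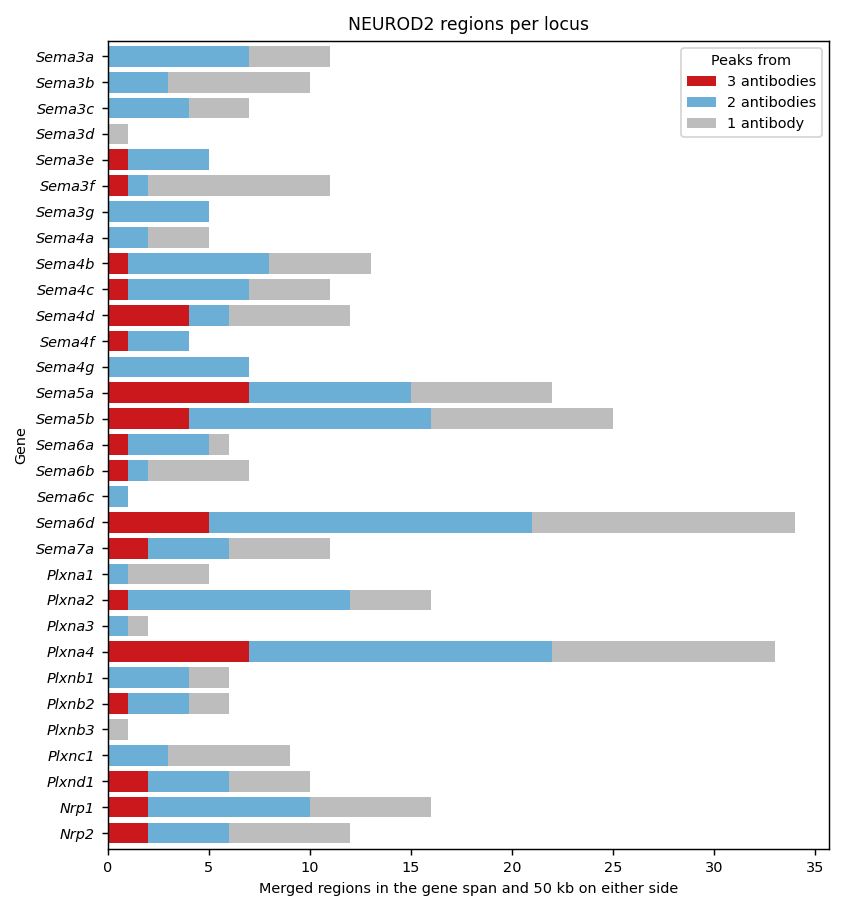
Merged NEUROD2 regions in each of the 31 loci (horizontal axis, number of regions; one bar per gene), split by the number of antibodies with a peak. Plxna4 and Sema6d hold the most shared regions, 22 and 21, and Sema3d and Plxnb3 hold a lone region of 1 antibody each.

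Shared regions were spread unevenly over the genes. The 10 loci with the most were Plxna4 (22), Sema6d (21), Sema5b (16), Sema5a (15), Plxna2 (12), Nrp1 (10), Sema4b (8), and Sema3a, Sema4c and Sema4g (7 each), together 125 or 64.1% of them. Sema4d, Sema7a, Plxnd1 and Nrp2 had 6 each, Sema3e, Sema3g and Sema6a 5 each, and Sema3c, Sema4f, Plxnb1 and Plxnb2 4 each. Sema3b and Plxnc1 had 3, Sema3f, Sema4a and Sema6b 2, and Sema6c, Plxna1 and Plxna3 1. Close relatives thus had unlike counts, with 21 in Sema6d and 1 in Sema6c, and 22 in Plxna4 and 1 in Plxna1. Part of this goes with length, since per 100 kb of locus the values were 3.10 and 0.881, and 4.04 and 0.683. At least 10 shared regions were found in 6 of the 31 genes, or 19.4%, against 3.03% of all protein-coding genes.

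Long genes offer more room for peaks, so counts were also taken per 100 kb of locus. The median was 2.79 shared regions per 100 kb over the 31 genes, with a range of 0 to 7.18, against 0.950 over all protein-coding genes, and 26 of the 31 genes (83.9%) lay above that genome median, which 50% of genes exceed by construction. The medians were 0.447 and 0 without ab1 or without ab2, and 1.60 and 0.620 with a minimum peak score of 100. The 31 genes were also longer, with a median span of 40.2 kb against 17.2 kb. In a split by length that was chosen after the values were seen, the 18 genes with a span of up to 100 kb had a median of 3.12 per 100 kb against 0.931 for protein-coding genes of that length. The 13 longer genes had a median of 2.72 against 1.31. A region with all 3 antibodies was found in 9 of the 18 shorter genes against 23.3% of protein-coding genes of that length, and in 9 of the 13 longer genes against 54.0%. A shared region was found in 17 of the 18 shorter genes against 64.9%, and in 12 of the 13 longer genes against 89.3%, so that the longer genes lay near the share for their length. The densest loci were Sema5b at 7.18, Sema4c at 6.38, Sema4g at 6.12 and Sema4b at 5.73 shared regions per 100 kb, and 1.29% of protein-coding genes were at least as dense as Sema5b.

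**Figure D2:**
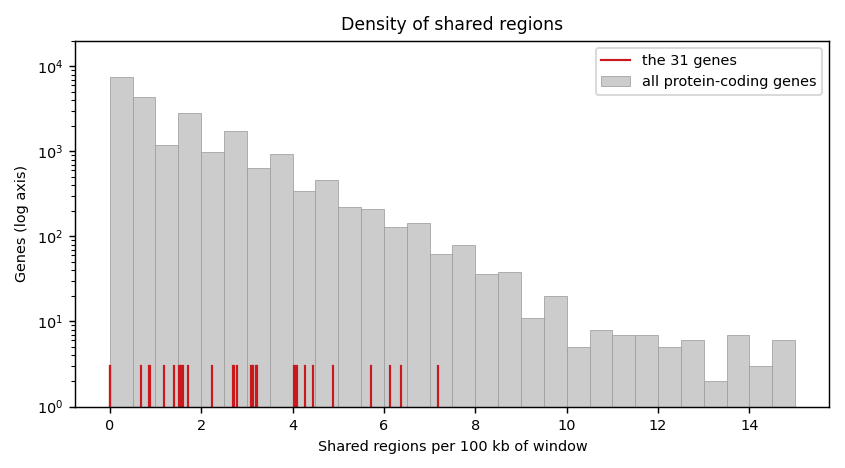
Shared regions per 100 kb of locus (horizontal axis) for all 21938 protein-coding genes (grey bars, number of genes on a log axis; the last bar also holds the genes above 15) and for each of the 31 genes (red ticks, whose height has no meaning). The ticks run from 0 to 7.18, with a median of 2.79 against 0.950 over all protein-coding genes.

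The strongest region of a locus is here the shared region with the highest ab1 score. Where a region is said to be closest to a gene, only the TSSs of protein-coding genes were compared. Among the ligands, the secreted class 3 semaphorins had the thinnest binding. Their 7 loci held 26 shared regions, 2 of them with all 3 antibodies, at 1.49 per 100 kb of summed locus. Single loci ranged from 0 in Sema3d to 4.44 per 100 kb in Sema3g. Sema3a, a repellent for cortical axons, had 7 shared regions, of which 4 lay in introns 3 to 6 and 3 downstream, and none had an ab3 peak. Its strongest region, in intron 4 and 296 kb from the TSS of the longest transcript, scored 1032 with ab1 and 596 with ab2. That region lay 21815 bp from another annotated Sema3a start. Sema3e, which signals through plexin D1 without a neuropilin, had 5 shared regions, all in introns. The strongest, in intron 1, scored 628, 485 and 55.8 with ab1, ab2 and ab3. In Sema3f, a ligand of neuropilin 2, the region in intron 2 scored 1139, 575 and 141 and held 5 extended E-boxes in its central 200 bp. Sema3d had no shared region, and its lone ab1 peak scored 55.7, near the lower limit of 50 for a called peak. Sema3b and Sema3f lie near each other, and 2 regions with a peak of 1 antibody were counted in both loci.

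The transmembrane class 4 semaphorins were more densely bound, with 34 shared regions in 6 loci and 4.20 per 100 kb. Sema4d, a ligand of plexin B1, had 4 regions with all 3 antibodies among its 6 shared regions. One of them, in intron 1 at 15.3 kb, scored 3196 with ab1, 1205 with ab2 and 156 with ab3. The other 3 lay 7.23, 12.4 and 23.1 kb upstream of the TSS, with ab1 scores of 721, 2014 and 1756. Sema4b had its strongest region 43.0 kb upstream, with scores of 3100, 2247 and 451. That region is closer to the TSS of Idh2, a mitochondrial isocitrate dehydrogenase, than to that of Sema4b. Sema4f had a region at the intron 11 position of its longest transcript that scored 2404, 1713 and 350 and lay 99 bp from the start of a shorter annotated Sema4f transcript. In Sema4c, a ligand of plexin B2, the region with the highest ab1 score lay 22.2 kb upstream, with 1415 for ab1 and 300.4 for ab2. The highest ab2 score was in its lone region with all 3 antibodies, 29.9 kb from the TSS, with 897, 567 and 78.1, and 5 of the 7 shared regions lay downstream, closest to Ankrd23 or Cnnm3. In Sema4g likewise 5 of 7 lay downstream, closest to Lzts2, Pdzd7 or Sfxn3, and the strongest scored 479 and 298. Which gene such regions act on was not tested.

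The class 5 semaphorins, membrane proteins with thrombospondin repeats, had the most regions per gene of the semaphorin classes. Per 100 kb of summed locus they held 4.00 against 4.20 in class 4, whereas the median over genes was 4.95 against 4.43. Sema5a and Sema5b together held 31 shared regions, 11 of them with all 3 antibodies. In Sema5a the 7 regions with all 3 antibodies lay at 79.5, 203, 289, 329.8, 369, 440.4 and 473 kb from the TSS. They were strung along the gene, except the last, which lay downstream of its end. The first of these, in intron 1 (the 3-site window printed above), was the strongest, with scores of 3100, 2138 and 545, and the ab1 scores of the other 6 lay between 398 and 1391. In Sema5b the regions were clustered. Of its 16 shared regions, 12 lay in intron 1, and 9 lay within 30 kb of each other, while no other of the 31 loci had more than 5 shared regions within 30 kb. The strongest of the cluster scored 1470.0, 517 and 75.3, and the printed region next to it scored 1424, 390.2 and 96.4.

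The class 6 semaphorins, transmembrane ligands of class A plexins, differed in count within the class, and less so per 100 kb, at 3.10 in Sema6d, 2.24 in Sema6a, 1.71 in Sema6b and 0.881 in Sema6c. Sema6d had 21 shared regions, of which 20 lay in introns and 9 in intron 5. The region in intron 5 at 434.5 kb scored 3100, 3078 and 840.4, and the scores for ab2 and ab3 were the highest of these antibodies in the 31 loci. The other 4 regions with all 3 antibodies in Sema6d lay at 195, 315, 400.7 and 551 kb. Sema6c had a single shared region, 57.1 kb from its TSS and 290 bp from that of Gabpb2, with scores of 355 and 90.4. Sema6b had 2 shared regions, and the stronger, 1.86 kb upstream, scored 1119.9, 793 and 112. The strongest region of Sema6a lay downstream of the gene and scored 579.7, 442 and 52.8. Sema7a, which is anchored by a lipid and binds integrin β1 and plexin C1, had its highest ab1 score at its TSS, with 1798 for ab1 and 513 for ab2. Its highest ab2 score was in a region with all 3 antibodies that lay 68.9 kb downstream of that TSS, closest to the TSS of another gene, with 1446, 632 and 85.1.

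**Figure D3:**
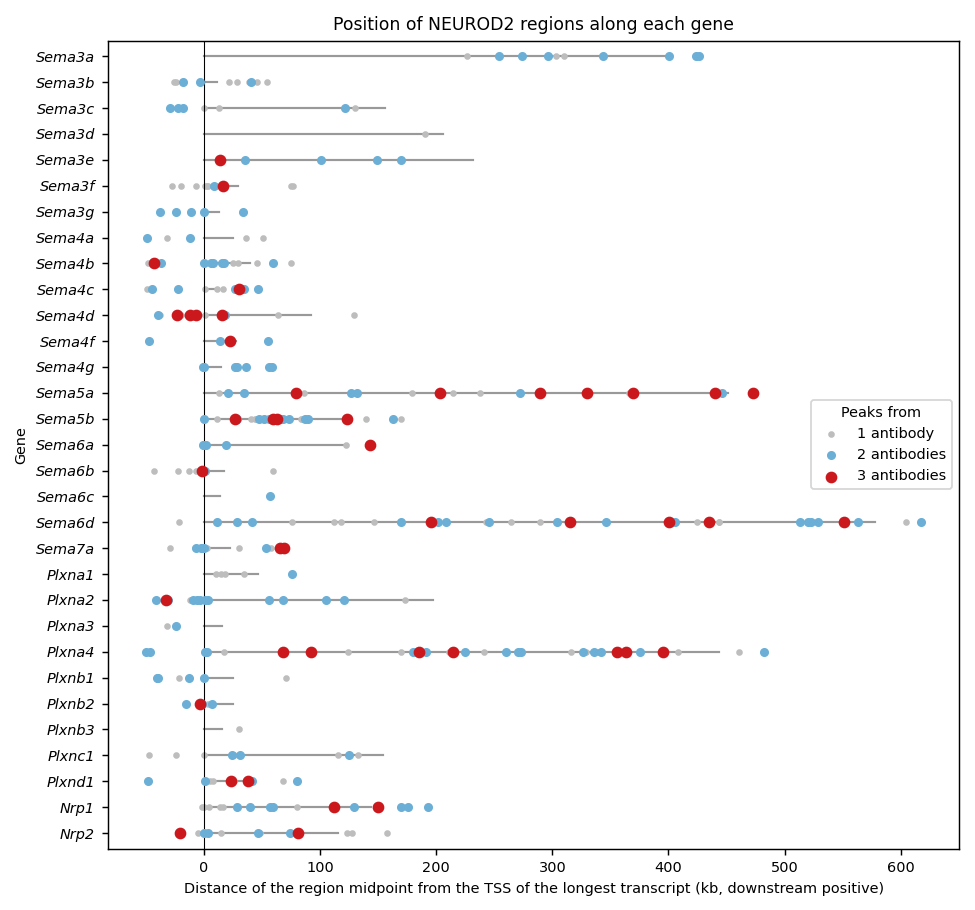
Position of every region in the 31 loci as the distance of its midpoint from the TSS of the longest transcript (horizontal axis, kb, downstream positive); grey lines show the gene span, and colour and size give the number of antibodies. Sema5a, Sema6d and Plxna4 carry regions with all 3 antibodies along most of their length, whereas in Sema5b 9 shared regions lie within 30 kb.

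Among the receptors, the class A plexins, which partner with neuropilins, held 36 of 69 shared regions, and these were in unequal shares. Plxna4 had 22, more than any other of the 31 genes, and 0.337% of protein-coding genes had as many. Its strongest region, in intron 3 at 214 kb, scored 3100, 2702 and 249, and 9 of its shared regions lay in that intron. Its 7 regions with all 3 antibodies lay between 68.1 and 395 kb from the TSS. Plxna2 had 12 shared regions, and the only 1 with all 3 antibodies lay 32.8 kb upstream and scored 2440.2, 916 and 149. All 12 were closest to the TSS of Plxna2 itself among those of protein-coding genes. With genes of all types counted, 11 shared regions were closest to it. Plxna1 and Plxna3 had 1 each, at 155 for ab1 and 148 for ab2 in Plxna1 and at 64.2 and 52.5 in Plxna3. These lay below the median of shared regions in the 31 loci, except the ab2 score of Plxna1, which was near it.

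The class B plexins, receptors for class 4 semaphorins, held 8 shared regions. In Plxnb2 the region 3.82 kb upstream scored 1859.9, 684 and 50.1, so that its ab3 peak only just passed the limit for a call. Plxnb1 had 4 shared regions, of which the strongest scored 303 and 53.0. Plxnb3, a receptor for Sema5a, had no shared region and 1 peak of ab1 with a score of 106. Plxnc1, the receptor for Sema7a, had 3 shared regions, with 142 and 103 in the strongest. Plxnd1, the receptor for Sema3e, had 6, and the strongest, in intron 33, scored 1518, 746 and 114.

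Both neuropilins were bound. Nrp1, the Sema3a co-receptor, had 10 shared regions, 6 in introns and 4 downstream, and none within 1 kb of its TSS. The strongest, in intron 9, scored 1332, 1009 and 98.1, and the other region with all 3 antibodies lay 149.6 kb from the TSS with 748, 578 and 69.5. Of the downstream regions, 3 were closest to Itgb1, the integrin β1 gene. Nrp2, the Sema3f co-receptor, had 6 shared regions, all closest to its own TSS among those of protein-coding genes. With genes of all types counted, 3 shared regions were closest to it. Those with all 3 antibodies lay 20.5 kb upstream, with 1607, 706 and 124, and in intron 13, with 1178, 415 and 126.

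**Figure D4:**
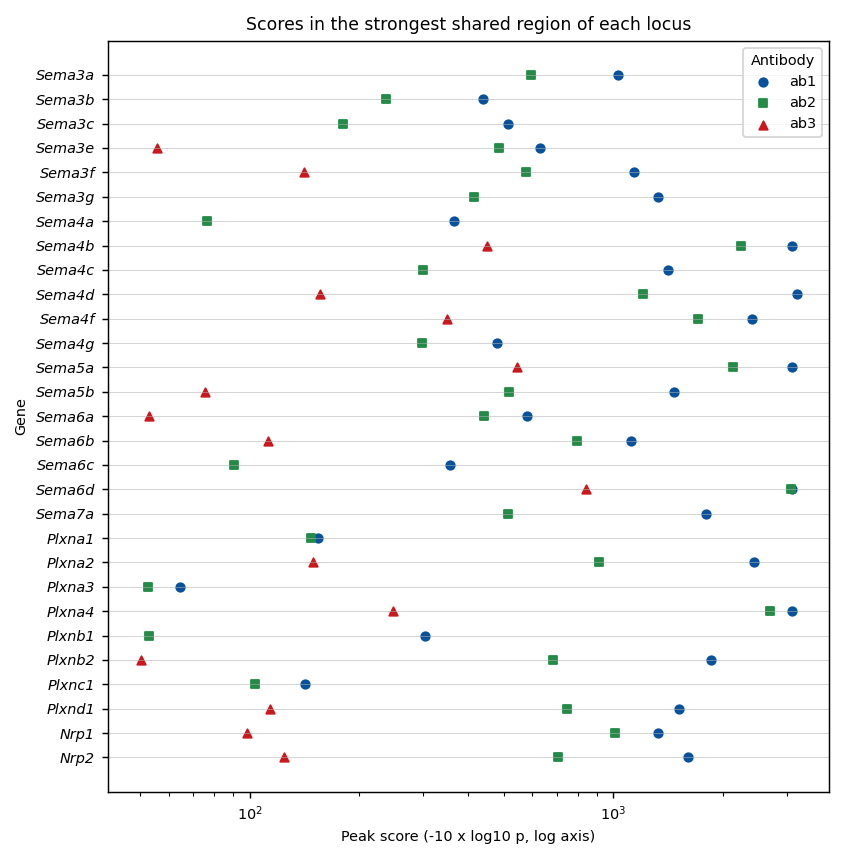
Peak scores (horizontal axis, log scale) of the 3 antibodies in the shared region with the highest ab1 score of each of the 29 loci that have one; a missing triangle means that ab3 had no peak there. The regions were chosen by ab1 and the scores are not scaled between antibodies, so the order of the antibodies is no finding; values run from 3100, 3078 and 840.4 in Sema6d down to 64.2 and 52.5 in Plxna3.

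The antibodies ordered the regions in similar ways. Over the 195 shared regions ab1 had a median score of 311 and ab2 one of 144, and ab3 had one of 98.1 over its 44 regions. The log10 scores of ab1 and ab2 correlated across regions with a Pearson r of 0.872 (Spearman 0.846), those of ab1 and ab3 with 0.706 (0.691, 44 regions) and those of ab2 and ab3 with 0.758 (0.648, 44 regions). These are descriptions across regions that share libraries, and ab2 and ab3 also share their control. Regions with all 3 antibodies were stronger with the others too, with medians of 1361 for ab1 and 588 for ab2 against 226 and 103 in regions with 2 antibodies. They were also wider, at a median of 1115 bp against 839 bp. At an ab1 score of at least 1000 there were 29 regions with all 3 antibodies and 9 with 2. Because 4 regions (in Sema4b, Sema5a, Sema6d and Plxna4) had the same ab1 score of 3100, their order, and their order against the 3196 of Sema4d, cannot be read from ab1. All 4 had higher ab2 and ab3 scores than the Sema4d region.

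Binding at start sites was found in 12 genes, with a shared region within 1 kb of the TSS of the longest transcript. They were the ligands Sema3g, Sema4b, Sema4g, Sema5b, Sema6a, Sema6b and Sema7a and the receptors Plxna2, Plxna4, Plxnb1, Plxnd1 and Nrp2. This is 38.7% of the 31 genes, against 20.8% of all protein-coding genes. By length, it was 7 of the 18 genes with a span of up to 100 kb against 19.3%, and 5 of the 13 longer genes against 32.5%. Counted at any annotated start of the gene, Sema3a, Sema4f and Sema6d join them, which makes 15 of 31 or 48.4%, against 24.8% of protein-coding genes. The strongest were Plxna4 with 1966 for ab1 and 739 for ab2, Sema7a with 1798 and 513, and Sema3g, a ligand of neuropilin 2, with 1329 and 414. Next came Plxnd1 with 864 and 372, Plxna2 with 769.5 and 199, Sema4b with 530.4 and 449, and Sema6b with 509 and 258. The lower 5 were Nrp2 with 310.1 and 138, Sema5b with 304 and 81.3, Sema6a with 225 and 144, Plxnb1 with 127 and 51.5, and Sema4g with 82.4 and 50.9. The midpoint lay at or downstream of the start in 11 of the 12. None of these 12 regions had an ab3 peak. A region with all 3 antibodies within 1 kb of the TSS of the longest transcript was rare in general, at 1.61% of protein-coding genes. Without ab1 or without ab2 the count at this TSS is therefore 0. Near other annotated starts of the gene, regions with all 3 antibodies lay 99 bp away in Sema4f, 414 bp in Plxnd1 and 831 bp in Plxna4.

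A score that sums over regions closest to a gene's TSS a weight falling with distance (decay length 5000 bp) gives a further view. It does not use the peak scores, so weak and strong regions count alike. Here 8 of the 31 genes, or 25.8%, lay above a threshold of 0.993, set at 1 SD above the mean of the genes that had a region, against 6.35% of protein-coding genes. Sema6a scored 2.46 and Plxna2 2.42, which ranked 12 and 13 among protein-coding genes, with genes of all types competing for regions. The Sema6a regions within 2 kb of its start had ab1 scores of 71.9, 225 and 216, below the median of 311 in the 31 loci. Sema7a scored 1.88, Sema4g 1.75, Sema6b 1.61, Sema4b and Nrp2 1.48 each, and Plxna4 1.43. The calls depend on the settings. Plxna4 was below the threshold at decay lengths of both 1000 and 50000 bp, Plxna2 at 1000 bp, Sema4g and Sema6b at 50000 bp, and Sema4g with a minimum peak score of 100. Plxnb1, Sema3g and Sema5b were above it at 1000 bp, Sema4d at 50000 bp, Sema3g with the minimum score, and Plxnb2 when only protein-coding genes competed for regions. Sema5a, with 15 shared regions, scored 0.0166, and the nearest of these to its start lay 20.9 kb away. Sema6d, with 21, scored 0.109. Without ab1 or without ab2, the lone gene above the threshold, against 2.06% of protein-coding genes under either setting, was Sema6b, whose region with all 3 antibodies lay 1.86 kb from the start.

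Most of the binding lay away from start sites. Of the 195 shared regions, 119 lay in the gene span, 42 upstream and 34 downstream. In the span, 110 lay in introns (35 of them in intron 1), 5 in exons of the 5′ untranslated region (Sema4g, Sema7a, Plxna4, Plxnb1 and Nrp2), 2 in coding exons (Sema3g and Plxnd1) and 2 in exons of the 3′ untranslated region (Sema5a and Sema5b). Of the 44 regions with all 3 antibodies, 29 lay in introns, 8 upstream, 6 downstream and 1 in the last exon of Sema5b, at a median of 80.1 kb from the TSS. The closest TSS of a protein-coding gene was that of another gene for 67 of the 195, or 34.4%. Distances to the closest such TSS were up to 1 kb for 22 regions, 1 to 10 kb for 34, 10 to 50 kb for 49 and over 50 kb for 90, or 46.2%, against 51.2% over the genome. The share between 1 and 10 kb was 17.4% against 10.0%.

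The extended E-box was present in the central 200 bp of 119 of the 195 shared regions, or 61.0% (95% Wilson interval 54.0 to 67.6), close to the 59.7% of all shared regions in the genome. Windows of the same length 1000 bp beyond the region held it in 22.1% on the left and 23.6% on the right. With each antibody's own peaks in the 31 loci the share was 58.0% (ab1), 61.1% (ab2) and 77.3% (ab3), a mean of 65.5% ± 10.4 (SD, n = 3), against 21.8% ± 2.06 in the right flanks. All antibodies gave values above their right flanks by more than the spread between antibodies. The study found this motif in its peak regions from these same libraries. An excess over the flanks was thus fixed in advance and is not independent support. The site was found in 68.2% of regions with all 3 antibodies and 58.9% of those with 2, near the 63.5% and 58.6% of such regions over the genome. The site count was at least 2 in 49 regions and at least 3 in 12. By core, with each form counted on both strands, CAGATG was in 41.0% of regions, against 43.1% of all shared regions in the genome and 2.58 times its mean share in the flanks. CAGCTG was in 31.3% (28.1% in the genome, 2.71 times the flanks) and CATATG in 11.3% (11.7% and 2.32 times). CACCTG, which is not part of the extended E-box, was in 25.6% (18% and 1.85 times).

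The share with an extended E-box depended on the distance to the closest coding TSS. It was 27.3% up to 1 kb, equal to the 27.3% of the flanks there, 44.1% between 1 and 10 kb, 69.4% between 10 and 50 kb and 71.1% beyond 50 kb. Over the genome the same shares were 20.8%, 59.0%, 65.5% and 66.5%. The median GC content of the windows fell over the same classes from 68.8% to 57.0%, 51.0% and 48.8%, and its part in the difference was not tested. At the 12 start sites of the 31 genes themselves, 4 windows held a site (Sema3g, Sema4g, Sema5b and Plxnb1), and the GC content of all 12 ranged from 59.5% to 76.5%.

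**Figure D5:**
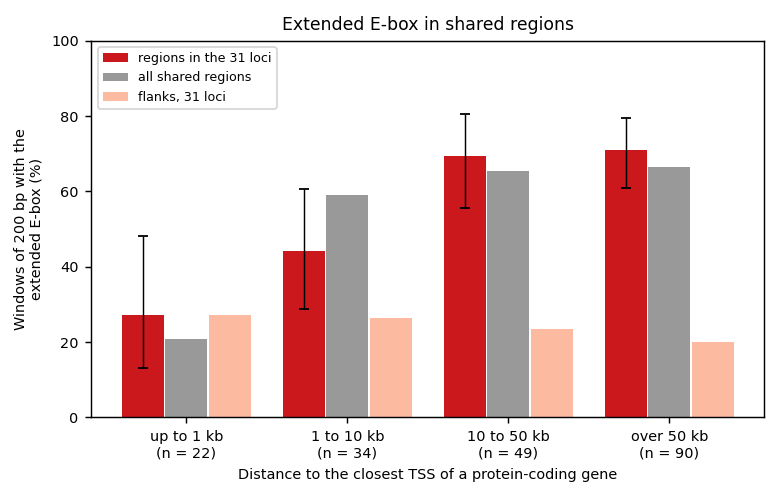
Percent of 200-bp windows with the extended E-box (vertical axis) by distance of the region to the closest TSS of a protein-coding gene, for shared regions in the 31 loci (red, with 95% Wilson intervals), all shared regions (grey) and the mean of both flanks in the 31 loci (light red). The red bars are 27.3%, 44.1%, 69.4% and 71.1%, and the interval lies above the flank share in each class beyond 1 kb.

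The regions with a peak of 1 antibody were mostly those of ab1. Of 127 such regions, 121 held ab1 alone, with a median score of 82.0 and a highest score of 431 in Plxnc1, and 65 of them (53.7%) held an extended E-box. The other 6 held ab2 alone, with scores of 50.1 to 118, and those in Sema4d and Plxna4 held the site. No ab3 peak stood alone. Per locus, Sema6d had 13 such regions, Plxna4 11, and Sema3f and Sema5b 9 each.

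Further genes of the pathway were taken from a list of 44 co-receptors, collapsin response mediators, kinases, GTPases and their regulators. Of these, 37 (84.1%) had a shared region in the locus, against 67.6% of all protein-coding genes. A region with all 3 antibodies was found in 19 of the 44 against 26.7% of protein-coding genes, a shared region at the TSS in 16 against 20.8%, and a score above the threshold in 9 against 6.35%. Fyn, a Src-family kinase active downstream of Sema3a, had 23 shared regions, 7 with all 3 antibodies. Tiam1, an exchange factor for Rac, had 12, and Nrcam, an adhesion molecule that partners with neuropilin 2, and Mical2, an enzyme that oxidises actin, had 11 each. Ptk2, the focal adhesion kinase, and Cdk5r1, the activator of the kinase Cdk5, had 10 each. No shared region was found in Met, Kdr, Timd2, Fes, Rock1, Rhod and Arhgef11. The 5 collapsin response mediators, cytosolic transducers of semaphorin signals, all had at least 4, as 21.6% of protein-coding genes did, with the most in Dpysl5 at 9. Without ab1 or without ab2, 19 of the 44 genes had a shared region.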

How the data were processed

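Peak lists of the 3 NEUROD2 libraries were analysed; the 2 GFP libraries come with no peak list here. According to the study's methods, Bowtie placed the reads on mm10, duplicates and ambiguous reads were discarded, and MACS called peaks for each antibody with the GFP library from the matching host as control. The score deposited by the authors is 10 times the −log10 p-value, starts at 50, and was not scaled between libraries, so scores are compared only within an antibody or side by side. The peak files give no read depth, and the library sizes in the study were not used here.

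Peaks overlapping by at least 1 bp were merged per locus, and regions with at least 2 antibodies were called shared. Loci, TSSs and segments came from GENCODE M21 (GRCm38), with the longest-span transcript per gene. The extended E-box was searched on both strands in 200 bp around each midpoint and in flanks that start 1000 bp outside the region. The reference strain differs from BALB/c, so strain variants were not seen. The gene score was modelled on the study's closest-gene idea, with an exponential decay chosen here and no subtraction of random sets, so its scale and calls are not those of the study. With 1 library per antibody and a single condition no test was made: counts stand beside the share of all protein-coding genes or all shared regions. The calculations were tested on simulated data (Python 3.11.15, pandas 2.3.3, scipy 1.17.1).

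The 31 genes and the pathway list were chosen with earlier results of these data known. Genes described in detail were the 10 with the most shared regions, those with a shared region within 1 kb of the TSS and those with none, with the region of highest ab1 score in each; other members and regions were added after their values were seen. The sequence of 1 region chosen by the rule is not reported here. Pathway genes named were the 5 with the most shared regions (6 with a tie), those with none, and the mediators, added later. Alternatives were a minimum score of 100, a minimum overlap of 50% of the shorter of the peaks, all 3 antibodies, each antibody left out, loci of 10 kb on either side, the highest peak as position, any annotated TSS, other motifs and windows, and other decay lengths and gene sets.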

Additional observations from a re-analysis of the deposited data

How the results depend on the processing

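Of 59 alternatives to the 8 main values, 37 changed them by less than the set limits (1.5 times for counts, 1 SD over antibodies for the E-box share and 1 SD over the lists with an antibody left out for the density) and 22 by more. With a peak score of at least 100, shared regions were 119, those with all 3 antibodies 21 and the median density 1.60 per 100 kb. Requiring all 3 antibodies gave 44 shared regions, 18 genes with one, 0 genes at the TSS, a median of 0.447 per 100 kb, 1 gene above the score threshold and 19 pathway genes. Leaving out each replicate (antibody) in turn gave ranges of 44 to 195 shared regions, 18 to 29 genes, 0 to 12 genes at the TSS, 0.447 to 2.79 per 100 kb, 1 to 8 genes above the threshold, 19 to 37 pathway genes and an E-box share of 61.0 to 70.5%; the low ends of the counts and the density are those without ab1 or ab2. The plain motif CANNTG was found in 90.3% of shared regions, and a window of 400 bp held the extended E-box in 76.9%. Sema4b, Sema6a, Sema7a and Nrp2 passed the gene score threshold at decay lengths of 1000, 5000 and 50000 bp, whereas Plxna2 did not at 1000 bp, Sema4g and Sema6b did not at 50000 bp, and Plxna4 did not at either. The position of the highest peak bears only on the TSS, E-box and gene score values, since loci were filled by peak midpoints. No paired analysis was possible because the GFP libraries that share replicate numbers have no peak lists here and no result comes from a test. Read depth, which the lists do not give, limits how far the shorter ab3 list can be read as weaker binding.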
